A study of Mus musculus with 6 samples.

Results

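Aminoacyl-tRNA synthetases join each amino acid to the tRNAs that are specific for it, and thereby supply every ribosome with its substrates. A cell keeps separate sets of these enzymes, one for translation in the cytosol and another, also encoded in the nucleus, that is imported into mitochondria. Many synthetase genes are known targets of the transcription factor Atf4, which is raised when uncharged tRNAs or other stresses activate the integrated stress response. The genes were taken by name from the deposited expression table, as symbols made of 1 capital letter and "ars" with nothing, 1 or 2 behind it, together with Eprs, Farsa and Farsb. This gave 37 of the 17348 genes in the table. Symbols ending in 2 mark 17 mitochondrial enzymes, and the other 20 are cytosolic, of which Gars (glycine) and Kars (lysine) also make the mitochondrial form from the same gene.

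The libraries came from mRNA of mouse embryonic cortex at E18.5, with 3 Ctrl and 3 cKO samples. The cKO embryos carried Nestin-Cre and Ybx1 fl/fl, so that exons 3 to 8 of Ybx1, an RNA-binding protein that reads m5C, are removed in Cre-expressing neural precursors and their progeny, while cells of other origin in the dissected tissue keep the gene. The Ctrl samples are labelled WT. The study calls Ybx1 fl/fl animals without Cre its controls elsewhere and speaks of wild type littermates in the sequencing methods, so whether these embryos carried the floxed allele was not settled. Tissue is labelled brain and the sample names say cortex. The comparison asks whether mRNA levels of the tRNA charging enzymes differ when Ybx1 is absent.

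Ybx1 itself had 16184, 22152 and 13950 estimated counts in the Ctrl libraries and 387, 394 and 390 in the cKO libraries. Library totals lay between 15091951 and 16885451 estimated counts, where 3 counts equal 0.176 to 0.206 CPM (counts scaled to library size). Cortical projection neuron markers summed to 2830 to 3411 CPM in Ctrl and 2755 to 3064 CPM in cKO, whereas 6 choroid plexus markers, including Ttr, reached at most 1.98 CPM in any library. The 7 meningeal fibroblast markers summed to 13.1 to 17.3 CPM in Ctrl and 17.7 to 18.8 CPM in cKO without overlap, with Lum, Dcn and Slc6a13 under 1 CPM in each library, and 0 of the 4 tested passed a threshold. The same held for the 8 microglia, 7 erythroid and 9 striatal and interneuron markers tested, with 0 past a threshold. Of the 7 endothelial, 8 projection neuron and 8 progenitor markers tested, 1 each was higher at an unadjusted p under 0.05 and 1.2-fold. That threshold was passed by 6.32% of all tested genes in either direction. The markers were Cdh5 at 0.41, Slc17a7 at 0.73 and Pax6 at 0.31 on the log2 scale. The part of these cell types in the synthetase values was not tested, and fewer cells of a type and less RNA per cell cannot be told apart in bulk tissue. Eif2s3y, Kdm5d and Ddx3y, all on the Y chromosome, had at least 714 counts in each Ctrl library and at most 1 in each cKO library, so sex and genotype cannot be told apart. Ctrl replicate 2 stood apart from the other Ctrl libraries, with a chi-square per degree of freedom of 39.7 and 62.4 against them, where those differed from each other by 10.2. Values without it are given where they change a statement.

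A response element for Atf4 and its partners, with the letters TGATGNAA on either strand, was looked for in RefSeq promoters of GRCm38.p6, from 250 bases before to 50 bases after the start. These were at hand for 27 of the 37 genes, and 5 of the 13 cytosolic and 0 of the 14 mitochondrial genes held a match, beside 4.51% of 27025 genes. For each of these 5 genes, the 30-base window around the match nearest the start is shown, because elements of this kind are a known route from Atf4 to its target genes. They are written in the direction of the gene, with the matched letters in capitals, so that TTNCATCA is the same motif on the other strand.
Yars, chr4:129189895-129189924: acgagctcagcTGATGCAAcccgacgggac
Gars, chr6:55037960-55037989: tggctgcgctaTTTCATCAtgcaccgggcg
Aars, chr8:111033840-111033869: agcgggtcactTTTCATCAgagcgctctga
Iars, chr13:49682126-49682155: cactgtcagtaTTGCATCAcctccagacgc
Tars, chr15:11399655-11399684: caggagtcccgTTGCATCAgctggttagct
Counting the start base as 1 and the base before it as -1, this match began at 4 in Yars, -30 in Gars, 10 in Aars, 8 in Iars and -15 in Tars. Tars is on the minus strand of the genome and the other 4 genes are on the plus strand. A match is a description of the letters and not evidence that a factor binds there.

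All 37 synthetase genes were expressed well above the floor, and the cytosolic enzymes were far more abundant than the mitochondrial ones. Levels between genes were compared as TPM (transcript abundance), which the authors scaled by transcript length. Averaged over the 6 libraries, cytosolic genes lay between 53.7 TPM (Lars, leucine) and 184 TPM (Gars), with a median of 86.6 TPM. Mitochondrial genes lay between 6.30 TPM (Wars2, tryptophan) and 44.0 TPM (Hars2, histidine), with a median of 16.8 TPM. No mean of one compartment fell within the range of the other. At the border, however, Lars spanned 44.6 to 58.9 TPM and Hars2 38.0 to 49.9 TPM, so these neighbours overlapped between libraries.

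Gars was the most abundant member in every library. Its levels were 179, 175 and 181 TPM in Ctrl and 190, 182 and 193 TPM in cKO, above the highest library of the next gene, Nars (asparagine), at 174 TPM. Below it, Nars, Kars and Sars (serine) had means of 156, 146 and 138 TPM and overlapped each other. The bifunctional Eprs, which charges both glutamate and proline, had a mean of 113 TPM. Farsb and Farsa, the subunits of the cytosolic phenylalanine enzyme, had means of 88.7 and 68.0 TPM. Enzymes of class II, which share one fold of the catalytic domain, had a median of 113 TPM over 10 cytosolic genes, and those of class I, which share another, had a median of 69.0 TPM over 10 (ranges 57.8 to 184 and 53.7 to 119 TPM). Eprs was counted in class I for its glutamate part only, whereas proline enzymes are of class II.

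**Figure D1:**
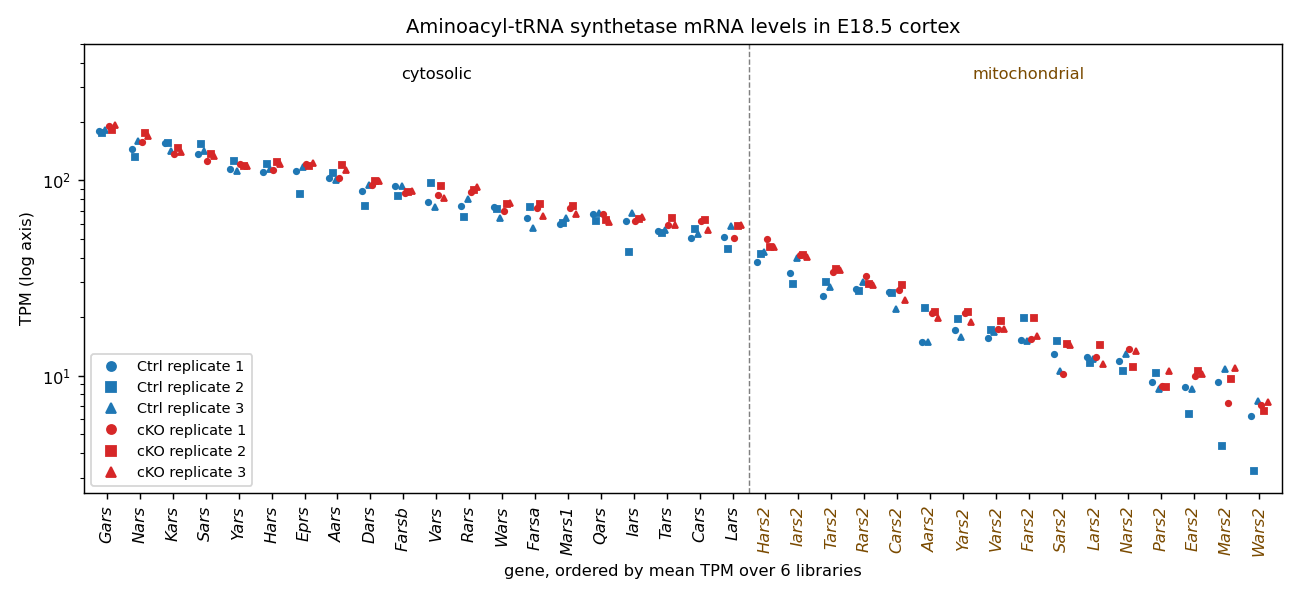
TPM of 36 of the 37 synthetase genes in each of the 6 libraries, on a log axis, with genes ordered by their mean and the libraries of each gene drawn side by side (blue Ctrl, red cKO, with the symbol giving the replicate). The cytosolic means end at 53.7 TPM and the mitochondrial means begin at 44.0 TPM, and Ctrl replicate 2 is far below the other libraries for Wars2 and Mars2.

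For 17 amino acids a cytosolic and a mitochondrial enzyme could be set against each other, which gave 18 pairs, since Eprs pairs with both Ears2 and Pars2, and Farsa and Farsb both pair with Fars2. The cytosolic gene was the higher one in every pair and library, and the ratio of TPM values varied widely between amino acids. It was above 12 on average for Nars over Nars2 (asparagine), Eprs over Ears2 and Pars2, and Wars over Wars2. These 4 were not ordered beyond their spread, with means of 12.8, 12.6, 12.2 and 12.4, and ranges over the libraries of 11.5 to 15.8, 11.2 to 13.8, 8.28 to 13.7 and 8.69 to 22.0. At the other end stood Cars over Cars2 (cysteine) at 2.18, Tars over Tars2 (threonine) at 1.86 and Iars over Iars2 (isoleucine) at 1.60. For isoleucine the ratio was 1.85, 1.46 and 1.69 in Ctrl and 1.5, 1.53 and 1.59 in cKO, so that the cytosolic gene stayed under 2 times the level of the mitochondrial one in all 6 libraries.

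In the comparison of cKO with Ctrl, no synthetase gene passed either threshold. With edgeR's quasi-likelihood test and Benjamini-Hochberg adjustment over all 13570 genes tested, 0 of the 37 had an adjusted p under 0.05, where 10 of all tested genes did (0.0737%). At an unadjusted p under 0.05 and a change of at least 1.2-fold, 0 of 37 passed as well, beside 857 genes or 6.32% of all tested. The number with an unadjusted p under 0.05 at any fold was also 0. The smallest unadjusted p was 0.0585, for Sars, whose adjusted p was 0.773. Log2 fold changes of cKO over Ctrl ran from -0.28 to 0.20. Their median size without sign was 0.071, compared with 0.115 over 9268 other genes in the same range of mean CPM, of which 6.14% passed the second threshold, and with 0.129 over all tested genes.

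The intervals limit how large a difference between the groups could have gone unseen in the main fit. They rest on TMM scaling and on all 6 libraries, and cannot separate genotype from sex. The standard errors of the log2 fold changes had a median of 0.125 (range 0.096 to 0.276). The 95% interval lay within 1.5-fold in either direction for 33 of the 37 genes, including all 20 cytosolic ones, and within 2-fold for all 37. The 4 genes whose interval reached past 1.5-fold were mitochondrial, namely Mars2 (methionine), Wars2, Sars2 and Fars2. Their counts were low, but Nars2, at 152 to 188 counts per library, had a standard error of only 0.154. Log2 CPM of Ctrl replicate 2 differed from the mean of the other Ctrl libraries by -0.97, -0.79, 0.61 and 0.56 in the 4 genes. That difference was 0.75 in Aars2, whose standard error was 0.203. The cause of the wide intervals was not tested. Mars2 had the widest interval, from -0.56 to 0.69, and held the lowest count of any member, 100 in Ctrl replicate 2.

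**Figure D2:**
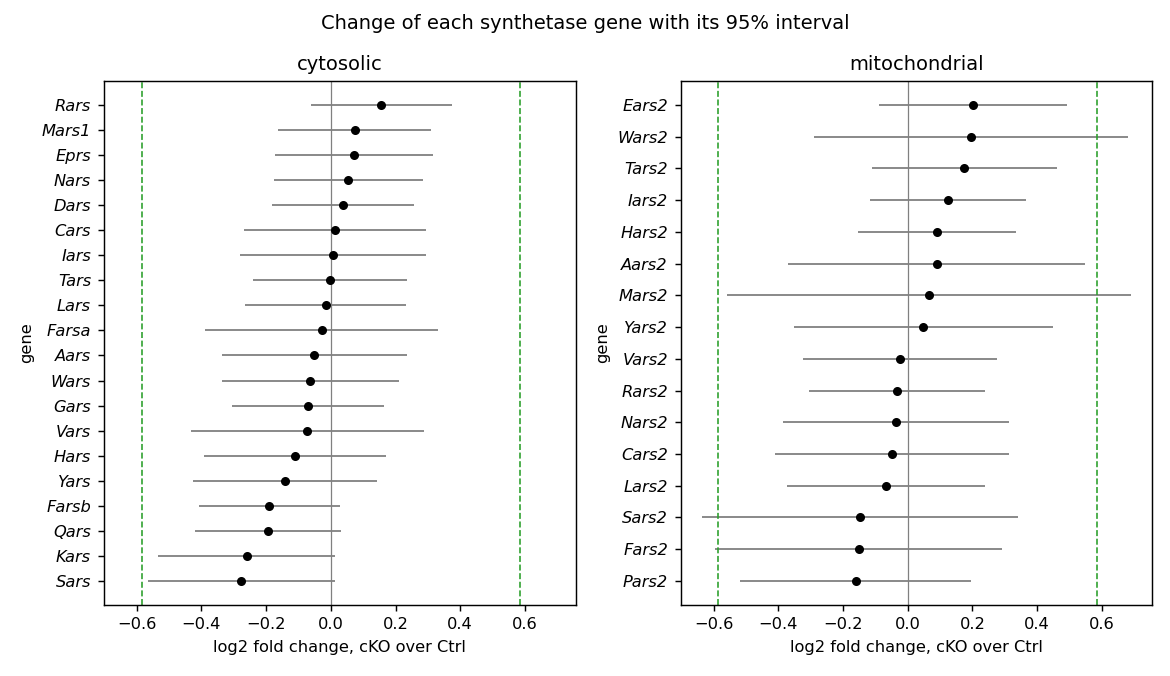
Log2 fold change of cKO over Ctrl for 36 of the 37 genes (points) with their 95% intervals (lines) from edgeR's quasi-likelihood fit, cytosolic genes on the left and mitochondrial genes on the right, and dashed lines at 1.5-fold. Every interval includes 0, and the intervals of Mars2, Wars2, Sars2 and Fars2 cross a dashed line.

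On the CPM scale the groups did not overlap for 5 of the 37 genes, or 13.5%, while 14.3% of all tested genes were without overlap (7.35% with cKO higher and 6.93% with cKO lower). In Sars, Farsb and Qars every cKO library was below every Ctrl library, and in Rars and Ears2 every cKO library was above. Each of these 5 had p = 0.1 in a two-sided exact permutation test, the smallest that 3 against 3 libraries allow. Which genes were apart depended on the scale. In TPM, where the median log2 fold change of all genes was 0.141, Sars, Farsb and Qars overlapped between the groups. Rars and Ears2 stayed apart with cKO higher. Every cKO library was also above every Ctrl library in other genes, among them Mars1, Eprs, Gars, Tars, Tars2, Iars2, Hars2 and Vars2. More members were thus apart in TPM than in CPM. The share of all genes without overlap was not computed in TPM, so the 14.3% does not apply there.

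Among the cytosolic enzymes outside the multisynthetase complex, Sars (chr3:108424865-108445209, minus strand; coordinates of genes are those of GENCODE M21 on GRCm38) had the largest negative value. It had 207, 265 and 208 CPM in the Ctrl libraries and 176, 196 and 190 CPM in the cKO libraries. All cKO values were below the Ctrl values, but Ctrl replicate 2 was far above the others. The fitted fold of cKO over Ctrl was 0.826, with a 95% interval of 0.676 to 1.01, and leaving out Ctrl replicate 2 brought the log2 fold change from -0.28 to -0.15. Without Ctrl replicate 3 it was -0.33 with an unadjusted p of 0.0364 and an adjusted p of 0.332.

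Farsb (chr1:78417975-78488897, minus strand), the beta subunit of phenylalanyl-tRNA synthetase, had 79.7, 82.0 and 75.5 CPM in Ctrl and 68.7, 69.4 and 69.9 CPM in cKO. The groups were apart, with a log2 fold change of -0.19 (standard error 0.096, unadjusted p = 0.0794 and adjusted p = 0.795, edgeR's quasi-likelihood test). Its partner subunit Farsa had a log2 fold change of -0.03 (standard error 0.159), or 0.16 without Ctrl replicate 2, and its groups overlapped. Yars (tyrosine; chr4:129189760-129219607, plus strand) had 110, 138 and 103 CPM in Ctrl and 107, 106 and 105 CPM in cKO. The cKO libraries lay among the Ctrl libraries, and the log2 fold change of -0.14 became -0.0089 without Ctrl replicate 2. Gars (chr6:55038007-55079500, plus strand) had 170, 190 and 166 CPM in Ctrl and 168, 162 and 171 CPM in cKO, again with overlap, at a log2 fold change of -0.07 (standard error 0.104) that was -0.0088 without Ctrl replicate 2. Of the 12 cytosolic genes outside the complex, 10 had a value below 0 and 2 above, with a median of -0.067. This count turned when Ctrl replicate 2 was left out, to 4 below and 8 above 0 with a median of 0.039.

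The multisynthetase complex holds 8 of the genes (Eprs, Iars, Lars, Qars, Mars1, Kars, Rars and Dars), and its members differed in sign, with 5 above and 3 below 0 and a median of 0.023, and 4 on either side with a median of -0.021 without Ctrl replicate 2. Kars (chr8:111993443-112011323, minus strand) was at 127, 145 and 111 CPM in Ctrl and 103, 111 and 105 CPM in cKO. Its highest cKO library and lowest Ctrl library were at the same level, and the log2 fold change was -0.26 (standard error 0.121, unadjusted p = 0.0591, adjusted p = 0.773). It was -0.16 without Ctrl replicate 2, and -0.35 without Ctrl replicate 3, where the unadjusted p was 0.0137 and the adjusted p 0.281.

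Qars (chr9:108507706-108515941, plus strand) charges glutamine in the cytosol, and mitochondria form this tRNA by amidation instead. It had 67.6, 71.1 and 65.6 CPM in Ctrl and 62.5, 59.0 and 57.2 CPM in cKO, which did not overlap, and its log2 fold change was -0.19 (standard error 0.10, adjusted p = 0.795). Rars (arginine; chr11:35808381-35834506, minus strand) went the other way, with 61.7, 62.0 and 64.3 CPM in Ctrl and 67.5, 69.9 and 72.2 CPM in cKO. Here too the groups were apart, and the log2 fold change was 0.16 (standard error 0.096, adjusted p = 0.825). On the TPM scale, where the median of all genes was itself 0.141 higher in cKO, Rars had a value of 0.30 with an unadjusted p of 0.0217 and an adjusted p of 0.456 (limma).

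Eprs (chr1:185363044-185428360, plus strand), the bifunctional enzyme, had 235, 203 and 238 CPM in Ctrl and 237, 233 and 240 CPM in cKO. Ctrl replicate 2 alone was low, and the log2 fold change of 0.07 was 0.00036 without it and -0.039 once trends with transcript length and GC content were removed. Lars had 83.9, 83.6 and 92.7 CPM in Ctrl and 77.3, 89.9 and 90.1 CPM in cKO, with overlap and a log2 fold change of -0.02, or -0.042 without Ctrl replicate 2. The remaining complex members Mars1 (methionine), Dars (aspartate) and Iars had values of 0.07, 0.04 and 0.0075, and of 0.13, 0.011 and -0.11 without that library.

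The nonenzymatic proteins that hold the complex together, encoded by Aimp1, Aimp2 and Eef1e1, did not pass either threshold (0 of 3). Aimp1 had 50.8, 57.7 and 41.0 CPM in Ctrl and 40.4, 42.5 and 43.4 CPM in cKO, a log2 fold change of -0.24 (standard error 0.136). Aimp2 was at 21.8, 27.2 and 18.2 CPM in Ctrl and between 17.9 and 19.9 CPM in the 3 cKO libraries, at -0.26 (standard error 0.162). For Eef1e1 the levels were 37.5, 43.8 and 34.6 CPM in Ctrl and 32.7, 32.4 and 35.3 CPM in cKO, at -0.21 (standard error 0.122). In all 3 genes the groups overlapped and Ctrl replicate 2 was the highest library, and without it the log2 fold changes were -0.13, -0.09 and -0.11.

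The mitochondrial enzymes had log2 fold changes from -0.16 (Pars2) to 0.20 (Ears2). Ears2 (glutamate; chr7:122037213-122067263, minus strand) had 22.1, 17.6 and 20.3 CPM in Ctrl and 22.5, 23.0 and 23.4 CPM in cKO. The groups were apart by the small distance between 22.1 and 22.5 CPM, and the log2 fold change had a standard error of 0.129 and an adjusted p of 0.837. It was 0.12 without Ctrl replicate 2, the lowest library. Tars2 (chr3:95739976-95760206, minus strand) had 26.1, 33.8 and 28.1 CPM in Ctrl and 32.6, 33.8 and 33.1 CPM in cKO. All cKO libraries exceeded Ctrl replicates 1 and 3, while Ctrl replicate 2 reached the cKO level. Its log2 fold change was 0.18 (standard error 0.126, adjusted p = 0.854), and 0.29 without Ctrl replicate 2, with an unadjusted p of 0.0109 and an adjusted p of 0.249.

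Iars2 (chr1:185284726-185329396, minus strand) had 53.8, 53.1 and 62.3 CPM in Ctrl and 61.3, 62.6 and 60.6 CPM in cKO, and the third Ctrl library lay within the cKO range. Its log2 fold change was 0.12 (standard error 0.107), and 0.035 after the length and GC correction. Hars2 was at 43.2, 50.4 and 46.4 CPM in Ctrl and 52.9, 48.5 and 47.8 CPM in cKO, with overlap, at a log2 fold change of 0.09 (standard error 0.108), or 0.15 without Ctrl replicate 2. Pars2 (proline; chr4:106651069-106655282, plus strand) had 9.40, 11.5 and 8.98 CPM in Ctrl and 8.85, 8.43 and 9.45 CPM in cKO, which overlapped. Its value of -0.16 (standard error 0.158) was -0.045 without Ctrl replicate 2.

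Wars2 (chr3:99141068-99239186, plus strand), the least abundant member per length, illustrated how far a single library reached. It had 12.5, 7.61 and 14.0 CPM in Ctrl and 12.9, 12.7 and 13.3 CPM in cKO. Ctrl replicate 2 was the lowest by a wide margin, while the other Ctrl libraries bracketed the cKO values. The log2 fold change of 0.20 (standard error 0.215) turned to -0.026 without that library.

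As groups, the 20 cytosolic genes had a median log2 fold change of -0.040 (13 below and 7 above 0) and the 17 mitochondrial genes a median of 0.048 (8 below and 9 above 0), beside 0.0027 for all tested genes. The group medians of single libraries varied between replicates with an SD of 0.088 (cytosolic) and 0.076 (mitochondrial), which is more than the distance of either median from 0. Without Ctrl replicate 2 the medians were 0.012 and 0.081, and with the same correction for length and GC they were -0.040 and -0.0098.

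Summed CPM of the cytosolic genes was 2185, 2419 and 2146 in Ctrl and 2093, 2221 and 2160 in cKO. The mitochondrial sum was 360, 404 and 375 CPM in Ctrl and 392, 403 and 388 CPM in cKO. Both sums overlapped between the groups and were highest in Ctrl replicate 2. Their ratio did not overlap, with 6.07, 5.98 and 5.72 in Ctrl (5.92 ± 0.179, SD, n = 3) and 5.33, 5.51 and 5.57 in cKO (5.47 ± 0.121, SD, n = 3). Every cKO library was below every Ctrl library, and Ctrl replicate 2 lay between the other Ctrl libraries. The ratio was not computed with the length and GC correction. On the TPM scale the ratio was 6.08 ± 0.130 in Ctrl and 5.70 ± 0.122 in cKO (SD, n = 3), also without overlap. The TPM sums themselves were 1874, 1842 and 1898 (cytosolic) and 301, 308 and 314 (mitochondrial) in Ctrl, and 1934, 2028 and 1983 and 347, 355 and 341 in cKO. Both were thus higher in each cKO library on that scale, on which all genes had a median log2 fold change of 0.141. Relative to that shift, the median was -0.027 for the cytosolic and 0.050 for the mitochondrial genes. The ratio is given as a description of these 6 libraries.

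**Figure D3:**
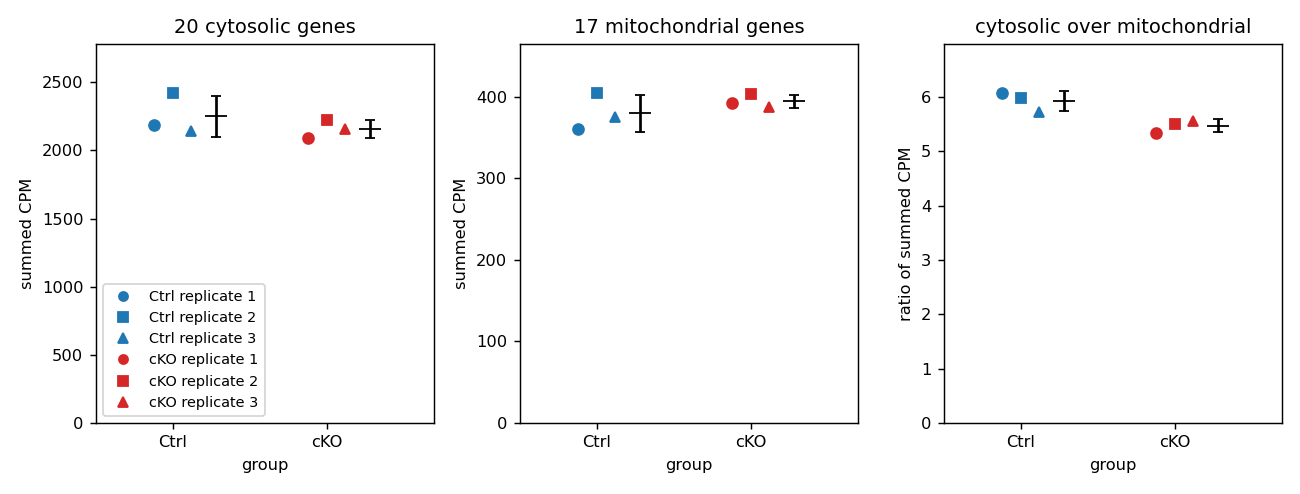
Summed CPM of the 20 cytosolic and the 17 mitochondrial genes and the ratio of both sums, with a point for each library and the mean with SD (n = 3) beside each group. The sums overlap between the groups, and the ratio is at or above 5.72 in the Ctrl and at or below 5.57 in the cKO libraries.

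Taken amino acid by amino acid, the ratio of cytosolic to mitochondrial TPM had a log2 change below 0 in 12 of the 18 pairs, with a median of -0.059 and a range from -0.31 (Wars over Wars2) to 0.22 (Eprs over Pars2). The groups were apart in 3 of the 18 pairs (16.7%). The 14.3% of single genes without overlap is a share on the CPM scale, and none was computed for ratios of TPM. Eprs over Ears2 was 12.9, 13.5 and 13.8 in Ctrl and 12.2, 11.2 and 12.1 in cKO, and Yars over Yars2 was 6.76, 6.46 and 7.15 in Ctrl and 5.81, 5.62 and 6.28 in cKO. Both of these were lower in cKO. Rars over Rars2 was 2.66, 2.41 and 2.66 in Ctrl and 2.69, 3.05 and 3.20 in cKO, and thus higher. Each gave p = 0.1 in a two-sided exact permutation test, the smallest possible in this design. The wide value of Wars over Wars2 rested on Ctrl replicate 2, where the ratio was 22.0 against 11.9 and 8.69 in the other Ctrl libraries. Mars1 over Mars2 was likewise 13.9 in that library, against 6.41 and 5.92 in the other Ctrl libraries. In cKO it was 10.1, 7.70 and 6.15. The count below 0, the median and the range over pairs were not computed without Ctrl replicate 2, and the range depends on that library.

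Ctrl replicate 2 was the highest of the 6 libraries for 22 of the 37 genes and the lowest for 7. It was above both other Ctrl libraries in 25 genes, below both in 9 and between them in 3. The coefficient of variation of CPM had a median of 12.9% in Ctrl and 5.17% in cKO, and was larger in Ctrl for 30 of the 37. It was not computed without Ctrl replicate 2. Across the 37 genes the deviation of this library from the other Ctrl libraries was correlated with the GC content of the longest transcript (Pearson r = 0.683, Spearman rho = 0.676) and with log transcript length (Pearson r = -0.519). Over 13318 tested genes the corresponding Pearson r was 0.503 for GC content and -0.578 for length. These are correlations across genes that share a single library, and genes are not independent replicates. Aars2, of high GC content (60.0%), had a deviation of 0.75 on the log2 scale, and Mars2, with the lowest GC content of the members (38.8%) and the longest transcript, had -0.97.

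Aars2 (alanine) is named here after its values were seen. It had 21.4, 35.1 and 20.4 CPM in Ctrl and 27.5, 28.4 and 26.1 CPM in cKO, so that the cKO libraries lay between Ctrl replicate 2 and the other Ctrl libraries. Its log2 fold change was 0.09 (standard error 0.203) with all libraries. Without Ctrl replicate 2 it was 0.39 (standard error 0.103), with an unadjusted p of 0.0033 and an adjusted p of 0.144 (edgeR's quasi-likelihood test), the smallest adjusted p of any member in any of 15 alternative fits. None of the 555 values of members in those fits had an adjusted p under 0.05.

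**Figure D4:**
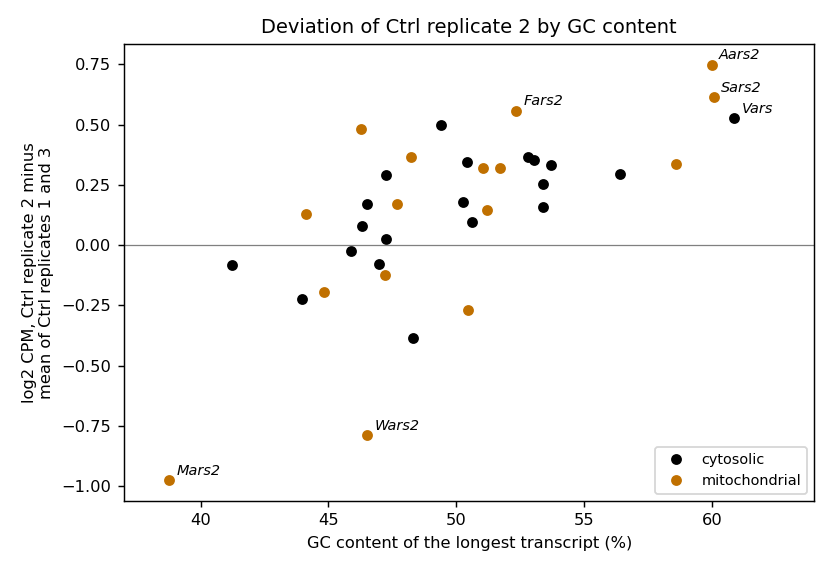
Difference in log2 CPM between Ctrl replicate 2 and the mean of Ctrl replicates 1 and 3 for 36 of the 37 genes (vertical axis) against the GC content of the longest transcript in percent (horizontal axis), with cytosolic genes in black and mitochondrial genes in orange. Values rise with GC content (Pearson r = 0.683 over all 37), from -0.97 for Mars2 at 38.8% to 0.75 for Aars2 at 60.0%.

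Of the genes that act with or upon the synthetases, the lists around charging and mitochondrial translation held no gene past either threshold. This was 0 of 5 for the synthetase-like and editing genes, including Tarsl2 (log2 fold change 0.07, standard error 0.108), 0 of 4 for the amidotransferase subunits and formylase (Gatb, Gatc, Qrsl1 and Mtfmt) and 0 of 10 for mitochondrial translation factors. Their median log2 fold changes were -0.19, -0.0010 and 0.011, and -0.084, -0.0066 and 0.025 without Ctrl replicate 2.

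From the 25 genes of the Atf4 pathway, 19 were tested, and 0 were higher and 1 lower at an unadjusted p under 0.05 and 1.2-fold. Of all tested genes, 6.32% passed that threshold in either direction, so this single call was not read as a trait of the list. Atf4 had 93.7, 127 and 106 CPM in Ctrl and 92.9, 98.8 and 97.5 CPM in cKO, with overlap and a log2 fold change of -0.18 (standard error 0.128), which was -0.049 without Ctrl replicate 2. Ddit3, the stress-induced factor CHOP, had a log2 fold change of -0.13 (standard error 0.152), or -0.086 without that library, and Asns, asparagine synthetase, had 0.15 (standard error 0.124). Trib3, an Atf4 target, was under 0.4 CPM in each library and was not tested. The gene that was lower was Mthfd2, a mitochondrial folate enzyme, with 10.6, 10.5 and 9.25 CPM in Ctrl and 7.49, 7.99 and 6.77 CPM in cKO (log2 fold change -0.45, standard error 0.153, unadjusted p = 0.0164 and adjusted p = 0.588). The median of the tested list was -0.10, and -0.049 without Ctrl replicate 2. The 5 synthetase genes whose promoters held the motif printed above had log2 fold changes from -0.14 (Yars) to 0.0075 (Iars), with a median of -0.051, and the 8 cytosolic genes whose promoter held no match had a median of -0.11. Without Ctrl replicate 2 these medians were -0.0088 and -0.074.

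The elongation factor eEF1, which carries the charged tRNA to the ribosome and thus takes over the product of the synthetases, is encoded by 5 genes of the list. They summed to 7878 to 9375 CPM in Ctrl and 4952 to 5054 CPM in cKO. In the main fit 3 of 5 were lower at an unadjusted p under 0.05 and 1.2-fold. That threshold was passed by 6.32% of all tested genes in either direction. In the same fit 0 of 5 had an adjusted p under 0.05. Such an adjusted p was reached in 6 of the 15 alternative fits by Eef1a1, 4 by Eef1b2, 7 by Eef1g and 0 by Eef1a2 and Eef1d. Eef1a1, the tRNA carrier itself, had 7430, 8086 and 7023 CPM in Ctrl and 4433, 4381 and 4368 CPM in cKO, and its log2 value was -0.77 (standard error 0.113, adjusted p = 0.0816). Eef1b2, of the exchange factor, had 246, 349 and 224 CPM in Ctrl and 173, 161 and 162 CPM in cKO, at -0.72 (standard error 0.166, adjusted p = 0.348). For both, the cKO libraries lay wholly below the Ctrl libraries. Without Ctrl replicate 2 the log2 fold changes were -0.72 for Eef1a1 and -0.51 for Eef1b2. The third was Eef1g, at -1.10, which the study had itself picked partly from these libraries, so its direction is no independent evidence. Eef1a2 and Eef1d had values of -0.06 and -0.23 and overlapped between the groups, and without Ctrl replicate 2 they were at 0.07 and -0.04. The difference between eEF1 and synthetase genes was not itself tested.

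Several members share exonic bases with another gene in GENCODE M21, and their values are uncertain to that extent. Aars shares 1326 bases with Exosc6 on the same strand. On opposite strands, Iars2 shares 2034 bases with Rab3gap2, Farsb 248 with Sgpp2, Hars 195 with Hars2, Fars2 115 with Lyrm4, Ears2 89 with Ubfd1, Mars1 68 with Ddit3 and Yars 30 with C77080, and Iars2 and Vars2 each overlap an antisense gene. Whether counting used strand is not given in the sources used here, so reads of such neighbours cannot be told apart.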

How the data were processed

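RNA was extracted from cortices with Trizol and made into mRNA libraries, per the labels. The authors deposited 1 table with 3 values for each gene in each library (estimated count, TPM and FPKM). The estimated counts of the authors were not normalized between libraries, and 89.4% were whole numbers. In the deposited TPM and FPKM columns the authors corrected for transcript length and library size. The submitters' processing notes name HISAT2 2.2.1, Bowtie2 2.4.5 and RSEM 1.3.1 and the builds GRCm38 and mm10. Annotation and strandedness are not given in the sources used here. The table's columns of group means were not used, and FPKM values were not analysed further.

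Counts were rounded, filtered by filterByExpr, scaled by TMM and compared with edgeR 4.0.16 (quasi-likelihood, Benjamini-Hochberg over 13570 genes) in R 4.3.3. The standard error of a log2 fold change is its size over the root of its F statistic. CPM refers to the TMM-scaled total. Intervals cover 95%. Errors are SD. The common biological coefficient of variation was 0.147, so replicates varied by more than counting error. Permutation tests were exact and two-sided. Lengths, GC contents and positions came from GENCODE M21 (longest transcript). Alternatives were DESeq2 1.42.0, limma 3.58.1 on log2(TPM + 1), RLE factors, TMM without ribosomal protein and translation factor genes, no filter, CPM above 1 in 2 libraries, a length and GC correction (mgcv 1.9.3), the replicate block and each library left out. On simulated counts the edgeR fit recovered 27.0% of genes changed 1.5-fold, 78.3% at 2-fold and 91.2% at 4-fold, with 8 false calls among 13464 genes.

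The members, gene lists and tests were chosen with earlier results of these data known. Full values are given for the 6 genes of each compartment with the smallest p, those with the highest and lowest TPM, Gars, Kars, Qars and Eprs, and any member past a threshold. Nothing says which libraries shared a litter or a sequencing batch, and p-values measure the spread between these samples. Some items are withheld for evaluations and are left out of the text and the plots of single genes.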

Additional observations from a re-analysis of the deposited data

How the results depend on the processing

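The number of synthetase genes with an adjusted p under 0.05 was 0 in all 15 alternative fits. At an unadjusted p under 0.05 and 1.2-fold it was 1 with DESeq2 (Sars, unadjusted p = 0.0496 from its Wald test across all genes) and 2 with limma on TPM (Rars and Tars2), and between 0 and 2 with 1 library left out, namely Aars2 and Tars2 without Ctrl replicate 2 and Sars and Kars without Ctrl replicate 3. The share of members was 2.70% to 5.41% in these 4 fits, below that of all genes in the same fit (5.92% with DESeq2, 9.62% with limma, 8.58% without Ctrl replicate 2 and 13.8% without Ctrl replicate 3). The limma calls used values that were not taken relative to the median of all genes on the TPM scale. Relative to it, Rars and Tars2 were each at 0.16 on the log2 scale, under 1.2-fold. With 1 library left out, the median log2 fold change ranged from -0.116 to 0.0124 for the cytosolic and from -0.0427 to 0.0808 for the mitochondrial genes, so neither median kept its sign. The range crossed 0 for 21 of the 37 genes (9 cytosolic and 12 mitochondrial), among them Lars (-0.054 to 0.055), Wars2 (-0.026 to 0.37), Vars (-0.19 to 0.12), Farsa (-0.16 to 0.16) and Mars2 (-0.20 to 0.27). Eprs turned from 0.07 to -0.039 after the length and GC correction and to -0.037 with the replicate block added to it. The cause of these changes was not tested.

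Same-numbered libraries had correlations of 0.0824, 0.0519 and 0.217. Ctrl replicate 2 correlated best with cKO replicate 1 (0.0599), and the remaining combinations lay between -0.135 and -0.027. Ctrl replicates 1 and 3 thus each correlated best with the cKO library of their own number. These values do not settle whether the numbers mark pairs. No label ties them to litters or batches, so the main fit did not pair them and the block was an alternative. With the replicate block 0 synthetase genes passed either threshold, and the medians were -0.033 and 0.065. Over all genes the number with an adjusted p under 0.05 was 10, but 99 with DESeq2, 161 with the length and GC correction, 190 with this and the block, 122 without Ctrl replicate 2 and 19 without Ctrl replicate 3. The number at the looser threshold was 857, 1306 with limma on TPM, and 490 to 1894 with 1 library left out. Counts per library were 100 to 994 for the mitochondrial and 555 to 4523 for the cytosolic genes, and median standard errors were 0.154 and 0.115.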
